A study of Mus musculus with 10 samples.

Results

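The genes described here code for enzymes and subunits that add, remove or read acetyl groups on histones, and they were chosen by name. A gene was a member when its symbol began with Kat, Hdac, Sirt, Ing, Epc or Msl followed directly by a digit, and 36 of the 15507 genes listed carried such a symbol. The members were 8 acetyltransferases (Kat), 10 deacetylases (Hdac), 7 sirtuins (Sirt), 5 ING proteins, 2 EPC proteins and 4 MSL proteins. All 36 had enough reads to be tested, in a comparison that covered 15389 genes.

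RNA was taken from germ cells prepared from the testes of 5 wild type (WT) mice and 5 homozygous GRTH knock-in (KI) mice aged 45 days, with 1 library per mouse. KI mice carry a human GRTH gene whose mutation replaces one arginine by histidine. GRTH, also called DDX25, is a testicular RNA helicase, and the mouse gene is Ddx25. Germ cells were not separated by stage before RNA was taken, and no strain is given in the sources used here. The stages present differ between genotypes. The paper reports that round spermatids of KI mice do not elongate, so that later spermatids and sperm are missing. Messenger RNA was selected by its poly(A) tail and sequenced in read pairs of 150 bases.

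An acetyl group on a lysine of a histone tail removes its positive charge and loosens the contact between histone and DNA, and it also makes a docking site for bromodomain proteins. Acetyltransferases write the mark, and deacetylases and the NAD-dependent sirtuins erase it. Most of these enzymes work in large complexes, where ING proteins read methylated histone H3 with a PHD finger, EPC proteins hold the NuA4 complex together and MSL proteins guide Kat8 to histone H4. In the testis, a wave of histone H4 acetylation in spermatids comes before histones are replaced by transition proteins and protamines. The comparison of KI with WT asks whether the transcripts of this machinery differ in germ cells with the mutant helicase.

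Values are normalised counts, that is, reads on a gene divided by the size factor of the library. Differences are given as log2 fold changes of KI against WT on the scale log2(normalised count + 1), from limma with a variance trend fitted to all genes tested, with Benjamini-Hochberg adjustment over all of them. A gene was called at an adjusted p under 0.05, and was taken as differentially expressed when its fold change was also at least 1.5, which is 0.585 on the log2 scale. Each WT library held between 13323024 and 16422347 recovered reads, and each KI library between 12722086 and 15500582. The targeted gene Ddx25 had 5198 to 11101 normalised counts in the WT libraries and 1.84 to 194 in the KI libraries (log2 fold change −7.84, limma adjusted p = 5.63e-05). Reads were aligned to the mouse genome, while KI mice carry a human GRTH gene. How many reads of the human gene are counted under Ddx25 was not tested, so this value does not give the level of mutant GRTH. Libraries 1 to 3 of each genotype differ from libraries 4 and 5 in mean read quality in the study's alignment summary, and values within each set are given where they bear on a result. Ddx25 itself differed between the sets in KI, with 146, 194 and 161 normalised counts in libraries 1 to 3 and 2.88 and 1.84 in libraries 4 and 5.

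Few members differed between the genotypes. Of the 36 members, 2 were called, Ing1 and Hdac4, and both were higher in KI. None was called lower. That is 5.56% of the members, whereas 22.9% of all genes tested were called, 9.65% higher and 13.3% lower in KI. With limma, 0 of 36 members were differentially expressed at 1.5-fold, against 14.4% of all genes (6.13% higher and 8.22% lower). At an unadjusted p under 0.05 there were 3 members, 2 higher and 1 lower, against 34.6% of all genes, and edgeR and DESeq2 on the recovered reads each called Ing1 and Hdac4 alone and none at 1.5-fold.

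The differences of most members were small. Their median absolute log2 fold change was 0.116, against 0.215 over all genes, and the values ran from −0.45 to 0.49. The 95% interval of the difference lay inside 1.5-fold in both directions for 32 of the 36 members, and for 54.0% of all genes. The exceptions were Ing1, which rose, and Hdac7, Hdac9 and Hdac10, at log2 fold changes of 0.36, −0.45 and −0.45. These deacetylases had few reads, as did Sirt5 and Sirt6, whose intervals lay inside 1.5-fold. The spread between libraries of one genotype was also smaller among members, with a median SD of 0.160 in WT and 0.153 in KI on the log2 scale, against 0.214 and 0.224 over all genes. Spread on this scale varies with level, and members were not compared with genes of like level. With only genes of a mean of at least 100 normalised counts, 0 of 31 members and 11.7% of all genes were differentially expressed. Libraries of the genotypes did not overlap for 2 members, Ing1 and Hdac4, and for 17.7% of all genes.

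The direction of small differences depended on the scaling. With the authors' size factors, 24 members lay above 0 and 12 below, the median of the members was 0.06 and that of all genes 0.03. Scaled to library totals, the median of all genes moved to 0.25 and that of the members to 0.29, 34 members lay above 0, and 17 were called, all higher in KI, against 40.5% of all genes. Of the 12 members below 0, only Hdac9 and Hdac10 stayed below 0 on that scale. Hdac4 and Ing1 were then also differentially expressed at 1.5-fold. On that scale, genes higher in KI made up 73.1% of all differentially expressed genes, and 42.7% with the size factors. With upper quartile scaling, 3 members were called, Ing1, Hdac4 and Sirt3, and higher genes made up 55.8%. Every log2 fold change below is on the authors' scale.

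**Figure D1:**
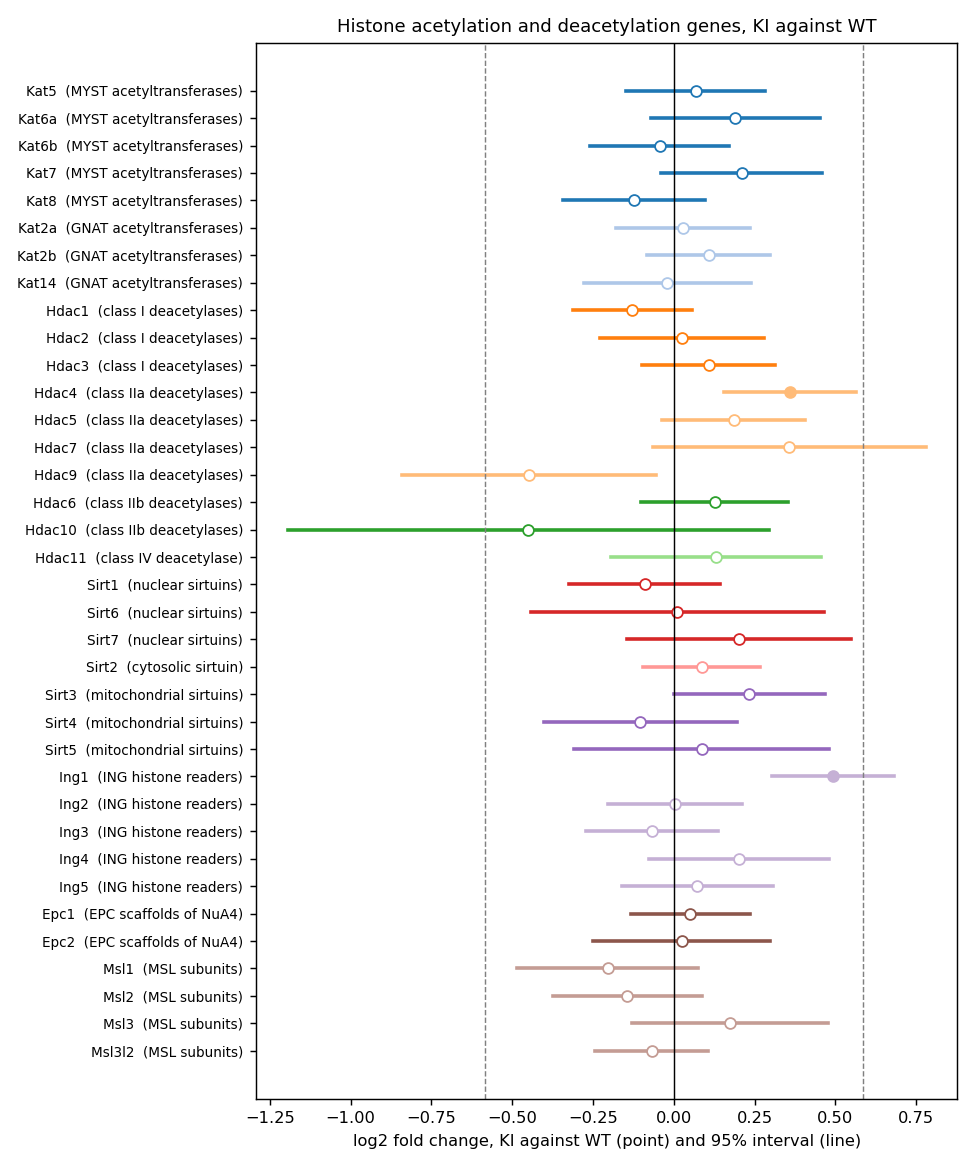
Log2 fold change of KI against WT (x axis) for the 36 members (y axis, grouped and coloured by role), with the 95% interval as a line. Filled points have an adjusted p under 0.05, and dashed lines mark 1.5-fold in each direction. Ing1 at 0.49 and Hdac4 at 0.36 are the filled points, and most other intervals cross 0 and stay between the dashed lines, with all values set by the authors' size factors (10 of the members below 0 lie above 0 when scaled to library totals).

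Ing1 codes for a PHD finger protein that binds trimethylated lysine on histone H3 and brings the Sin3 deacetylase complex to chromatin. The gene lies at chr8:11555762-11563251 (mm10, plus strand). Its normalised counts were 1159, 1265, 1285, 1315 and 1161 in WT libraries 1 to 5, and 1696, 1900, 1833, 1798 and 1490 in KI libraries 1 to 5. Every KI library was above every WT library, and KI library 5 was the lowest of its genotype. The mean rose from 1237 ± 72.6 (SD, n = 5) to 1744 ± 159 (SD, n = 5), which is 1.41-fold, with a log2 difference of 0.49 and an SE of 0.089 (limma adjusted p = 0.000888). The 95% interval ran from 0.30 to 0.68, so that a change of 1.5-fold lies within it. The log2 difference was 0.55 within libraries 1 to 3 and 0.41 within libraries 4 and 5, where the adjusted p from the 4 libraries was 0.11. No exon of another gene overlaps those of Ing1 in GENCODE.

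Hdac4 codes for a class IIa deacetylase, a family with weak catalytic activity of its own that binds MEF2 transcription factors and moves between nucleus and cytoplasm. It lies at chr1:91928779-92180341 (mm10, minus strand). Its normalised counts were 287, 276, 274, 276 and 323 in WT libraries 1 to 5, and 349, 359, 353, 367 and 415 in KI libraries 1 to 5. All KI libraries were above all WT libraries, and library 5 was the highest in both genotypes. The mean rose from 287 ± 20.5 (SD, n = 5) to 369 ± 26.8 (SD, n = 5), which is 1.28-fold, with a log2 difference of 0.36 and an SE of 0.095 (limma adjusted p = 0.0128). The 95% interval was 0.16 to 0.56. The difference was 0.34 within libraries 1 to 3 and 0.39 within libraries 4 and 5 (adjusted p = 0.188 in the latter). An antisense gene covers 1.63% of its exon bases, and no source states that reads were counted by strand.

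Both calls stood in 22 of the 23 alternative settings and were lost only with the 4 libraries numbered 4 and 5. Over those settings the log2 fold change was 0.41 to 0.72 for Ing1 (adjusted p 1.36e-06 to 0.11) and 0.32 to 0.59 for Hdac4 (0.00057 to 0.188).

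Markers of several cell types also moved with genotype in these preparations. All 8 elongating spermatid markers tested were lower in KI, and their summed normalised counts were 178691 to 333665 in WT and 23252 to 55504 in KI. Of 6 round spermatid markers, 3 were lower (14128 to 17162 in WT and 7890 to 14161 in KI), and of 8 spermatocyte and 8 spermatogonia markers 1 each was lower. Of 9 macrophage markers, 6 were higher in KI (788 to 1032 in WT and 1190 to 1559 in KI), as were 4 of 7 Leydig cell markers (10875 to 19504 and 15729 to 27046) and 2 of 5 endothelial markers (265 to 365 and 424 to 805). Of 5 peritubular myoid cell markers tested 2 were higher and 1 lower (2754 to 4214 and 1152 to 1642), and of 5 red blood cell markers 1 was higher and 1 lower (403 to 605 and 527 to 981). No marker of these lists was at 0 in any library, and none of the 8 Sertoli cell markers was called. In such bulk RNA, fewer cells of a type and less RNA per cell cannot be told apart by these counts alone. For elongating spermatids, the paper reports from earlier work that KI mice are without these cells. That marker list includes Tnp2 and Prm2, whose mRNAs the paper places in round spermatids of WT mice, before translation. It therefore does not mark elongating spermatids alone. The part of these markers' cells in the differences of Ing1, Hdac4 and the other genes described was not tested.

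Kat8, also called MOF, is the acetyltransferase of the MSL and NSL complexes and the main writer of acetylation on the lysine of histone H4 that keeps chromatin open. It is given in every library because the study examined its protein. The paper reports that protein as strongly reduced in KI, in Western blots of testis and in germ cells by immunohistochemistry. The counts here are of RNA from mixed germ cells and do not measure the protein. Kat8 lies at chr7:127912517-127925838 (mm10, plus strand). Its normalised counts were 2089, 2359, 2199, 2825 and 2327 in WT libraries 1 to 5, and 1894, 2113, 2024, 2501 and 2286 in KI libraries 1 to 5. The genotypes overlapped, and library 4 was the highest in each. The WT mean was 2360 ± 282 (SD, n = 5) and the KI mean 2164 ± 237 (SD, n = 5). Their log2 difference was −0.12, with an SE of 0.10 and a 95% interval of −0.34 to 0.10 (limma adjusted p = 0.435). A fall larger than 1.5-fold lies outside this interval. The difference was −0.14 within libraries 1 to 3 and −0.10 within libraries 4 and 5, and 0.11 when scaled to library totals, and the adjusted p was 0.172 to 0.842 over the alternatives. Prss8 on the other strand covers 7.73% of the exon bases of Kat8.

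The promoter windows of these 3 genes are shown because Ing1 and Hdac4 are the members called higher in KI and Kat8 had the highest level per kilobase of exon in WT. Each runs from 250 bases before the gene start to 50 bases after it, from RefSeq on GRCm38.p6, and 28 of the 36 members had a window at the start that the authors' table lists. Capitals mark the CCAAT box, the GC box with the letters GGGCGG, and the core of the cyclic AMP response element (CRE) with the letters TGACG, each also where its reverse complement is read. The windows are chr8:11555512-11555811 (plus strand), chr1:92180292-92180591 (minus strand) and chr7:127912267-127912566 (plus strand).
Ing1: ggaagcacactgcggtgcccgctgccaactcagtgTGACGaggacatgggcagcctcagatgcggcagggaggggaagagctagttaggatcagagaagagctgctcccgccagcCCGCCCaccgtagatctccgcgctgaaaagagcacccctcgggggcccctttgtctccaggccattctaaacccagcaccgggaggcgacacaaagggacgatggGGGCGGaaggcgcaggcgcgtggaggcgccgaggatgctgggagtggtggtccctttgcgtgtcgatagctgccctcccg
Hdac4: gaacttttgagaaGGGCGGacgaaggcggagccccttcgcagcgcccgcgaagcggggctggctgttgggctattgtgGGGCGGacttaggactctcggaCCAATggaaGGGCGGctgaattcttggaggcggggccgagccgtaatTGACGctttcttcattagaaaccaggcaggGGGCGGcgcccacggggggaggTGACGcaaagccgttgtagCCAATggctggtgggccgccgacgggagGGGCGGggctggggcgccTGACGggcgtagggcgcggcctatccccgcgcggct
Kat8: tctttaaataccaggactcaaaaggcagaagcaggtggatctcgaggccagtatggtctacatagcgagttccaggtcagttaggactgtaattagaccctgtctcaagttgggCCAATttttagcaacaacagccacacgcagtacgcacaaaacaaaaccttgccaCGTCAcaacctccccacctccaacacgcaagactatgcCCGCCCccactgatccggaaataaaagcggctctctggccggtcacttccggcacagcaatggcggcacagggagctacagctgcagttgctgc

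The Hdac4 window holds 3 CRE cores, 5 GC boxes and 2 CCAAT boxes. The Ing1 window holds 1 CRE core and 2 GC boxes, and that of Kat8 1 of each of the 3 motifs. None of the 3 windows holds the whole CRE TGACGTCA, the binding sequence of the CREB and CREM family, which includes an activator of spermatid genes. Among the 28 member windows, that motif was found in 2, those of Ing3 and Ing4, and in 1.8% of all 32851 promoter windows. The CRE core, which the whole CRE contains, was in 13 member windows and in 20.8% of all. The GC box was in 20 and in 35.7%, the CCAAT box in 12 and in 37.4%, the E-box CACGTG in 3 and in 7.2%, and the TATA box TATAAA in 1, that of Hdac9, and in 13.6%. Motifs were searched on both strands, and a match describes letters only. The 32851 windows include RefSeq starts beyond those the authors' table lists, while each member has 1 window at its listed start. Whether members hold more of a motif than like genes was not tested.

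**Figure D2:**
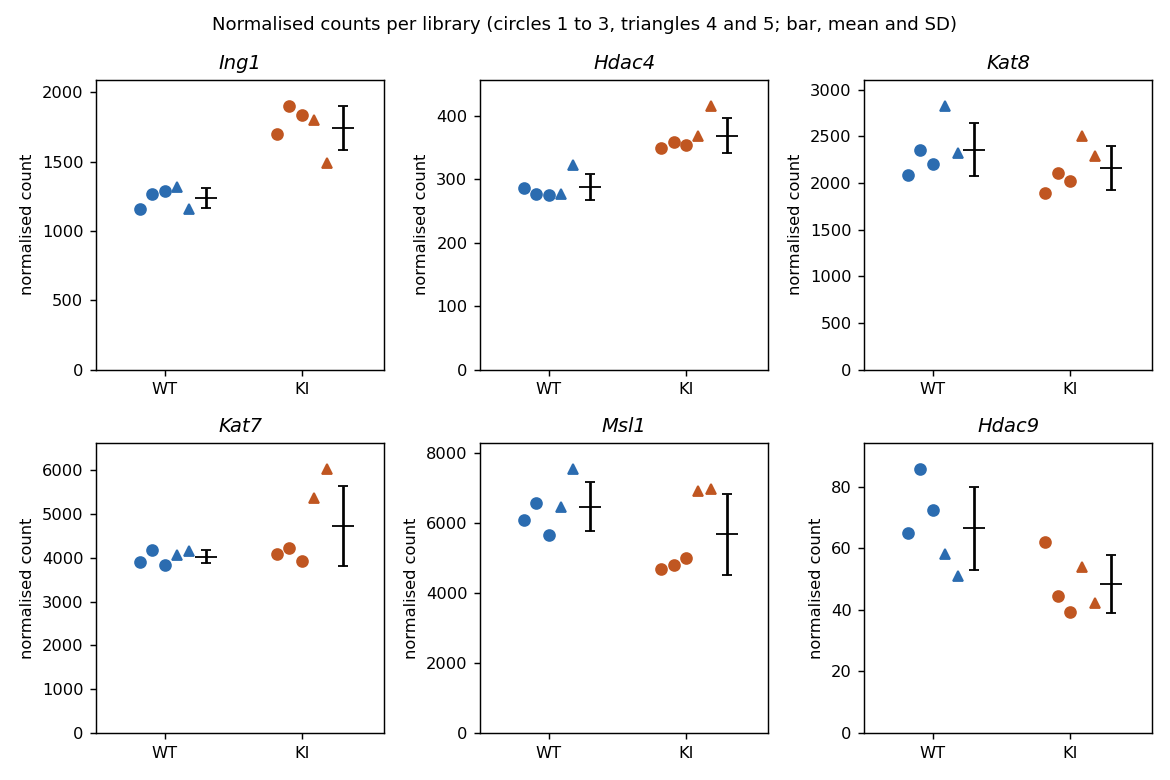
Normalised count (y axis, from 0) of Ing1, Hdac4, Kat8, Kat7, Msl1 and Hdac9 in the 5 WT and 5 KI libraries, with circles for libraries 1 to 3, triangles for libraries 4 and 5, and the mean and SD at the right of each group. Ing1 and Hdac4 show no overlap between genotypes, Kat7 is raised in KI libraries 4 and 5 alone, and Msl1 is low in KI libraries 1 to 3 alone.

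Levels of different members were compared per kilobase of exon, using exon lengths of GENCODE. In WT the highest was Kat8 at 1495 normalised counts per kilobase, followed by Hdac1 at 1231, Msl1 at 1206, Kat7 at 1110, Kat5 at 813, Msl3l2 at 767 and Sirt2 at 664. The class IIa and IIb deacetylases Hdac7 at 5.98, Hdac9 at 6.21 and Hdac10 at 7.13 were the lowest. The top of this order thus joins the catalytic subunit and the scaffold of the MSL complex with the class I deacetylase Hdac1 and the acetyltransferase of the HBO1 complex. Ing1 stood in place 10 at 363 and Hdac4 in place 31 at 35.5. In KI, Ing1 reached 511 and Hdac4 45.5 normalised counts per kilobase.

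Of the 5 MYST acetyltransferases, none was called. Kat5, or Tip60, the enzyme of the NuA4 complex, ranged from 1553 to 2057 normalised counts in WT and from 1696 to 2136 in KI (log2 fold change 0.07). Kat6a and Kat6b, the enzymes of the MOZ and MORF complexes, had log2 fold changes of 0.19 and −0.04. Kat7, or HBO1, which acetylates histones H3 and H4 around replication origins, had 3831 to 4184 normalised counts in the 5 WT libraries. In KI it had 4090, 4219 and 3915 in libraries 1 to 3 but 5375 and 6016 in libraries 4 and 5. Its log2 fold change was 0.21 over all libraries (limma adjusted p = 0.221), 0.04 within libraries 1 to 3, and 0.47 within libraries 4 and 5 (adjusted p = 0.0496). Kat7 was the one member called within libraries 4 and 5, where 11.0% of all genes were.

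The GNAT acetyltransferases Kat2a (GCN5) and Kat2b (PCAF), which are alternative catalytic subunits of SAGA and ATAC, had log2 fold changes of 0.03 and 0.11. Kat14, the second acetyltransferase of ATAC, had 231 to 275 normalised counts in WT and 211 to 302 in KI, with a log2 fold change of −0.02 that was 0.21 when scaled to library totals. Pet117 on the same strand covers 18.23% of the exon bases of Kat14, and Rnaseh2c on the other strand 18.91% of those of Kat5, so that these counts may include reads of a neighbour. Among the 8 Kat genes, limma called 0 at an adjusted p (22.9% of all genes) and 0 at an unadjusted p under 0.05 (34.6%), and 8 of 8 had intervals inside 1.5-fold (54.0%). Scaled to library totals, 5 of the 8 were called higher in KI, Kat2a, Kat2b, Kat5, Kat6a and Kat7 (40.5% of all genes were called in either direction).

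The class I deacetylases Hdac1, Hdac2 and Hdac3 form the catalytic cores of the Sin3, NuRD, CoREST and NCoR corepressors. Hdac1 had 2340 to 2660 normalised counts in WT and 2099 to 2605 in KI, a log2 fold change of −0.13 (95% interval −0.31 to 0.05, and 0.10 when scaled to library totals). Hdac2 was at 0.03 and Hdac3 at 0.11. Hdac3 was lowest in library 5 of both genotypes, at 739 in WT and 778 in KI. Hdac8, the remaining class I enzyme, was not analysed here.

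Class IIa deacetylases beside Hdac4 gave mixed values. Hdac5 had 661 to 887 normalised counts in WT and 730 to 918 in KI, a log2 fold change of 0.19 (95% interval −0.04 to 0.41). It was 0.33 within libraries 1 to 3, where it was called, and −0.03 within libraries 4 and 5. Hdac7, with 24 to 51 reads per library, had a log2 fold change of 0.36 like Hdac4, but an interval of −0.06 to 0.78. Hdac9, with 38 to 74 reads, had 64.9, 85.6, 72.5, 58.2 and 50.8 normalised counts in WT libraries 1 to 5 and 61.9, 44.3, 39.1, 53.9 and 42.3 in KI. The genotypes overlapped. Its log2 fold change was −0.45 (SE 0.18), with an unadjusted limma p of 0.0284 and an adjusted p of 0.0963. It was −0.62 within libraries 1 to 3 and −0.18 within libraries 4 and 5.

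Hdac6, the class IIb enzyme that deacetylates tubulin, had a log2 fold change of 0.13. Hdac10, a deacetylase of polyamines, had 8 to 37 reads per library and a log2 fold change of −0.45 with an interval of −1.19 to 0.29. Its normalised count was 32.2 in KI library 2 and 7.08 to 12.4 in the other KI libraries, against 11.6 to 21.6 in WT. Hdac11, the class IV enzyme, had 0.13 over all libraries, but 0.46 within libraries 1 to 3 and −0.36 within libraries 4 and 5. Its normalised counts were 464, 395, 583, 628 and 611 in WT and 703, 613, 650, 541 and 428 in KI. Exons of genes on the other strand cover 26.01% of its exon bases.

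Sirtuins remove acetyl and other acyl groups at the cost of NAD, in the nucleus (Sirt1, Sirt6, Sirt7), the cytoplasm (Sirt2) or mitochondria (Sirt3, Sirt4, Sirt5). None of the 7 was called by limma at an adjusted p or at an unadjusted p under 0.05, and 2, Sirt2 and Sirt3, were called when scaled to library totals. Sirt3, the main deacetylase of mitochondrial enzymes, came nearest with a log2 fold change of 0.23 (95% interval −0.00064 to 0.47, adjusted p = 0.146). It had 595 to 861 normalised counts in WT and 681 to 896 in KI, and was called at 0.32 without WT library 4, the highest of the WT libraries, and at 0.41 within libraries 1 to 3. Exons of Psmd13 and Ric8a on the other strand cover 12.35% of its exon bases. Sirt1, which deacetylates histones and p53, was at −0.09 and Sirt2 at 0.09. Sirt6 and Sirt7, at 20 to 45 and 68 to 155 reads per library, were at 0.01 and 0.20. Sirt4 and Sirt5, the latter a desuccinylase with 26 to 54 reads, were at −0.10 and 0.09. Sirt1 and Sirt4 lay above 0 when scaled to library totals, at 0.14 and 0.13.

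The other ING proteins did not follow Ing1 past the threshold. Ing2, which like Ing1 belongs to the Sin3 complex, had 266 to 315 normalised counts in WT and 268 to 308 in KI, a log2 fold change of 0.00 with a 95% interval of −0.20 to 0.21. The difference between Ing1 and Ing2 was not tested. Ing3 of the NuA4 complex was at −0.07 (0.16 when scaled to library totals). Ing4 and Ing5 of the HBO1 complex were at 0.20 and 0.07. A read-through gene on the same strand, Gm44597, covers 96.55% of the exon bases of Ing4, so that the value of Ing4 is uncertain.

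Epc1 and Epc2, paralogous scaffolds of NuA4, were at 0.05 and 0.02, with intervals of −0.13 to 0.24 and −0.25 to 0.30.

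The MSL complex holds Msl1 as its scaffold, Msl2 as a ubiquitin ligase and Msl3 as a chromodomain subunit, around Kat8. None of the 4 MSL genes was called by limma and none had an unadjusted p under 0.05, and Msl3 alone was called when scaled to library totals. Msl1 had 6083, 6581, 5665, 6475 and 7539 normalised counts in WT libraries 1 to 5, and 4691, 4802, 4992, 6919 and 6990 in KI libraries 1 to 5. KI libraries 1 to 3 were below every WT library, while KI libraries 4 and 5 lay among the WT values. Its log2 fold change was −0.21 over all libraries (limma adjusted p = 0.292, and 0.02 when scaled to library totals), −0.34 within libraries 1 to 3 (adjusted p = 0.00288) and −0.01 within libraries 4 and 5. Msl2 was at −0.14 (0.09 when scaled to library totals) and Msl3 at 0.17. Msl3l2, a gene related to Msl3, was at −0.07 (0.16 when scaled to library totals). Its transcript matched that of Msl3 with 73.0% identity over 845 of its 2140 bases, and its normalised counts of 1484 to 1771 over all 10 libraries stood above the 149 to 250 of Msl3.

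**Figure D3:**
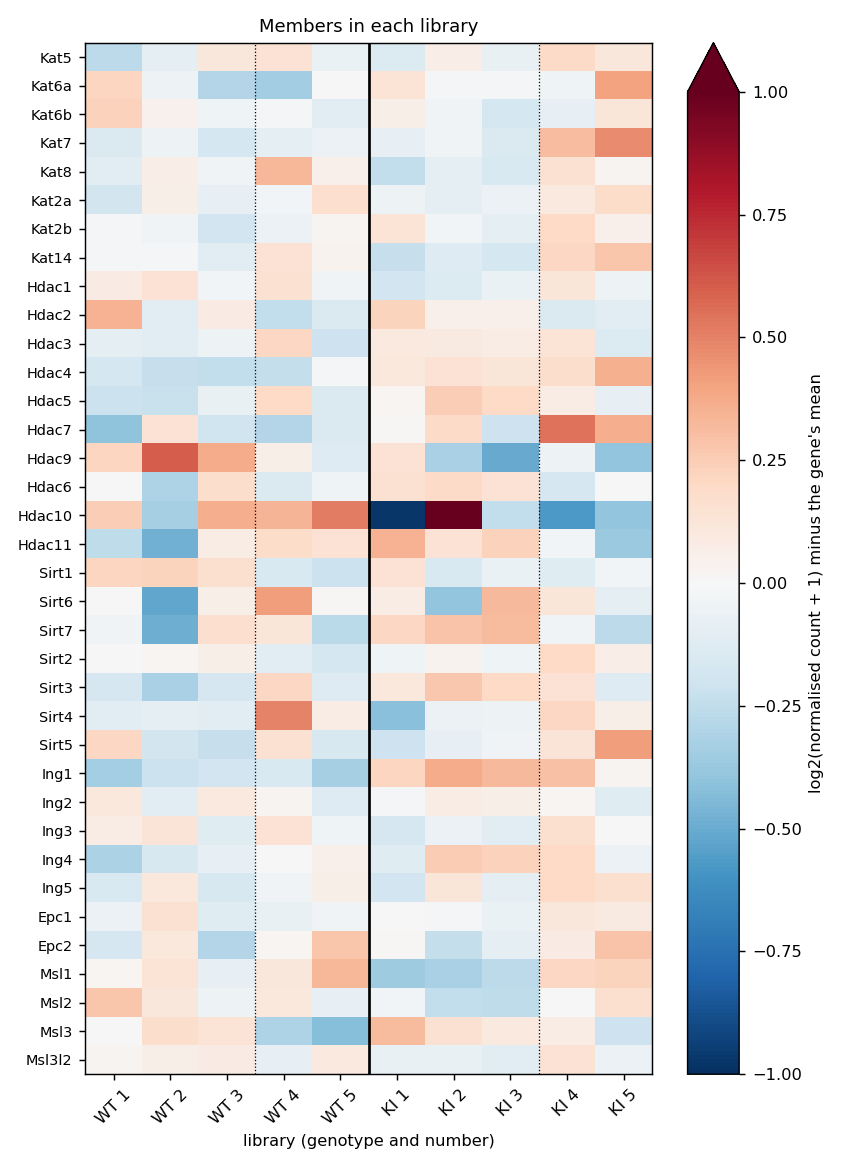
Each of the 36 members (y axis) in each of the 10 libraries (x axis), coloured by log2(normalised count + 1) minus the mean of the gene, from −1 to 1 (the one value above 1, Hdac10 in KI library 2, takes the end colour). The solid line parts WT from KI and the dotted lines part libraries 1 to 3 from 4 and 5. Ing1 and Hdac4 are lower in every WT library than in every KI library, while Kat7 is high in KI libraries 4 and 5 and Msl1 is low in KI libraries 1 to 3.

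Some members differed between the library sets, at about the rate of all genes. In a fit with genotype and library set, added after the data were seen, 7 of the 36 members (19.4%) differed between libraries 4 and 5 and libraries 1 to 3 at an adjusted p under 0.05 (limma), as did 21.5% of all genes (9.77% higher and 11.7% lower in libraries 4 and 5). Higher in libraries 4 and 5 were Msl1 (log2 difference 0.36), Sirt4 (0.35), Kat14 (0.28), Kat7 (0.26) and Kat8 (0.23), and lower were Msl3 (−0.36) and Hdac2 (−0.27). Ing1 and Hdac4 had set differences of −0.07 and 0.12 that did not pass the test.

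Whether the genotype difference itself depended on the set was tested by their interaction. With limma, 0 of 36 members passed an adjusted p of 0.05, and 0.247% of all genes did. At an unadjusted p under 0.05 there were 6 members, Hdac11, Kat7, Sirt3, Sirt2, Msl1 and Hdac5, or as many as 16.7% of the members against 16.1% of all genes. Hdac11 had the largest interaction (−0.82, limma adjusted p = 0.0904). Within libraries 1 to 3, 7 members were called, namely Ing1, Hdac4, Hdac5, Hdac11 and Sirt3 higher and Hdac9 and Msl1 lower, where 31.3% of all genes were called.

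**Figure D4:**
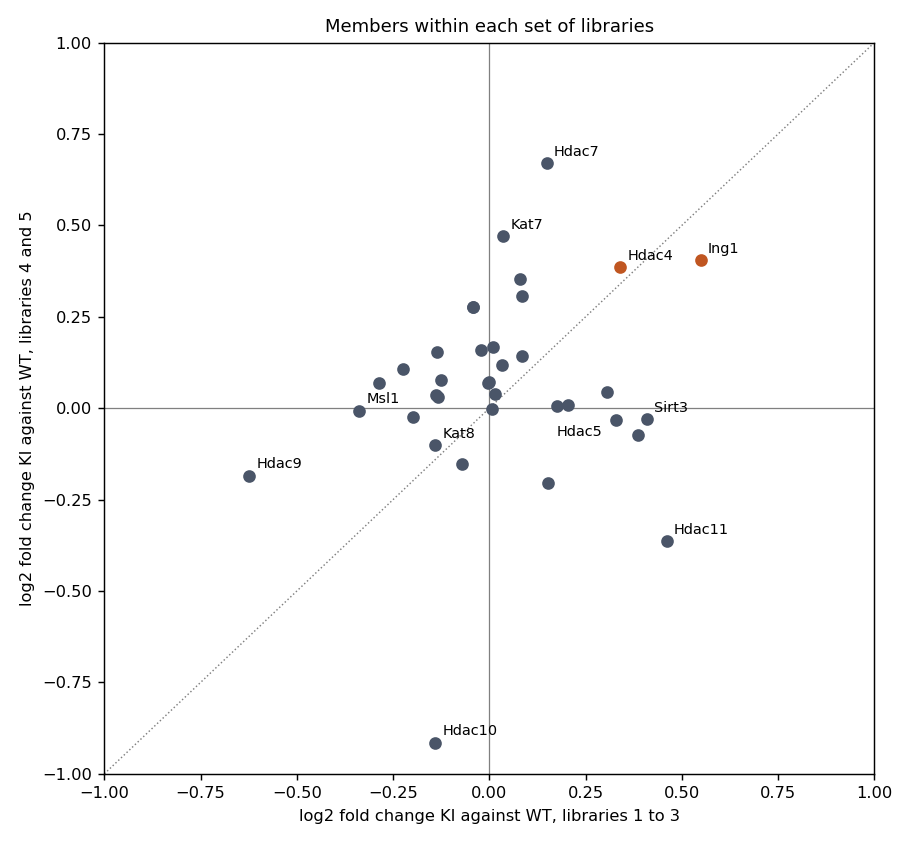
Log2 fold change of KI against WT within libraries 1 to 3 (x axis) and within libraries 4 and 5 (y axis) for the 36 members, with the line of equal values dotted and the members called over all libraries in orange. Ing1 at 0.55 and 0.41 and Hdac4 at 0.34 and 0.39 lie near the dotted line, and Hdac11 at 0.46 and −0.36 lies far from it.

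Partners of the members were read from a list of 109 other genes of histone acetylation, of which 108 were tested. Of these, 17 were called, 8 higher and 9 lower in KI (15.7%, against 22.9% of all genes), and 5 were differentially expressed at 1.5-fold, 4 lower and 1 higher (14.4% of all genes were). The median log2 fold change of the list was 0.05. With the replicate number as a block, 27 were called, 13 higher and 14 lower, against 32.0% of all genes. Scaled to library totals, 49 were called, 45 of them higher, against 40.5% of all genes.

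The falls were led by Naa60 and Mbd2. Naa60 codes for an N-terminal acetyltransferase at the Golgi that has also been described to act on histones. It had 692, 761, 756, 441 and 488 normalised counts in WT libraries 1 to 5 and 225, 240, 224, 183 and 205 in KI (log2 fold change −1.51, limma adjusted p = 5.59e-06). Mbd2, the subunit by which NuRD binds methylated DNA, had 810, 911, 961, 634 and 771 in WT and 330, 313, 350, 463 and 363 in KI (−1.16, limma adjusted p = 1.25e-05). For neither gene did the genotypes overlap.

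Cdyl, a chromodomain protein of the family that includes the Y-linked CDY genes of humans, fell from 3418 ± 466 to 2165 ± 219 normalised counts (SD, n = 5 each, log2 fold change −0.65, limma adjusted p = 0.000453). Sgf29, the SAGA subunit that reads trimethylated histone H3, fell from 2265 ± 363 to 1337 ± 315 (−0.78, limma adjusted p = 0.00302). Elmsan1, now Mideas, a scaffold of the mitotic deacetylase complex, rose from 35.5 ± 11.0 to 56.4 ± 12.8 (0.67, limma adjusted p = 0.0377). The libraries of Cdyl and Sgf29 did not overlap between genotypes, and those of Elmsan1 did. When each of the 10 libraries was left out in turn, the call of Elmsan1 was lost in 7 of the 10 fits (WT libraries 1, 3, 4 and 5 and KI libraries 1, 3 and 5), and those of Naa60, Mbd2, Cdyl and Sgf29 in 0.

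By complex, calls were scattered, and several were lost when 1 library was left out. Over all genes 22.9% were called, 9.65% higher and 13.3% lower in KI. Sin3a lost its call in 8 of the 10 fits (all but those without KI library 2 or 3), and so did Mta2 (all but those without KI library 1 or 3). Taf5l lost it in 6 (WT 1, 2 and 5 and KI 1, 2 and 5), Actl6a in 4 (WT 4 and 5 and KI 2 and 3), Morf4l2 in 4 (WT 2 and KI 1, 2 and 3) and Rcor3 in 1 (KI 3). SAGA and ATAC partners had 3 of 19 lower (Sgf29, Tada2b and Taf5l), or 15.8% called. NuA4 partners had 2 of 13 higher (Dmap1 and Morf4l2) and 1 lower (Actl6a), or 23.1% called. Sin3 partners, with which Ing1 works, had 2 of 13 higher (15.4%), Sin3a at 0.26 and Rbbp7, a histone-binding subunit, at 0.51. NuRD partners had Mta2 higher and Mbd2 lower among 9 (22.2%). CoREST partners had 1 of 5 lower (Rcor3, 20%), and acetyl-CoA and NAD supply had 1 of 7 higher (Acss2, 14.3%). Of 10 other acetyltransferases 4 were called, or 40%, the largest share among these lists. This list is short and was chosen with earlier results of these data known. It counts Naa60, an N-terminal acetyltransferase, and Cdyl, a chromodomain protein. Ncoa1 was higher, and Hat1, which acetylates newly made histone H4, was lower, as were Naa60 and Cdyl. Of the 8 NSL partners of Kat8, limma, edgeR and DESeq2 each called 0, and 0 had an unadjusted limma p under 0.05. The MOZ, MORF and HBO1 partners (7 genes), the acetyl-lysine readers (6) and the NCoR partners (5) had 0 called by the same 3 tools. At an unadjusted limma p under 0.05 they had 1, 1 and 2 genes, against 34.6% of all genes.

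**Figure D5:**
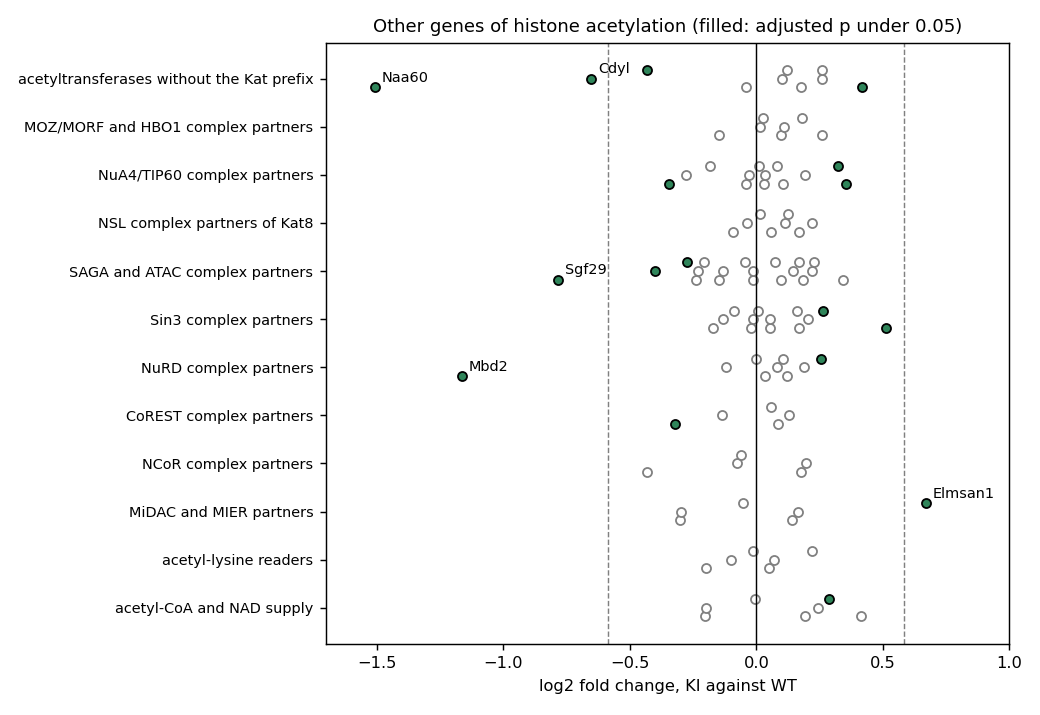
Log2 fold change of KI against WT (x axis) for the 108 tested partner genes by complex or function (y axis), with points spread vertically to part them. Filled points have an adjusted p under 0.05, dashed lines mark 1.5-fold, and the 5 genes past both are named, with Naa60 at −1.51 and Mbd2 at −1.16 farthest from 0.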

How the data were processed

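Poly(A) RNA of germ cells was sequenced in 10 libraries, 5 WT and 5 KI, grouped by their labels. After adapter trimming, the authors used STAR for alignment to mm10 and Partek for counting on genes (RefSeq release 91 model), and deposited a signal per gene and library, a count divided by the DESeq2 size factor. Within a library 100% of these values up to 5000 reads lay within 0.1 of a whole read once divided by the value of 1 read, so that reads could be recovered. Because the values are not counts, limma (version 3.58.1, R 4.3.3) with a variance trend was run on log2(value + 1) over 15389 genes kept by the filterByExpr function of edgeR (version 4.0.16), applied to the recovered reads, with no covariate. The quasi-likelihood test of edgeR and DESeq2 (version 1.42.0) on the recovered reads were alternatives, with other scalings, pseudocounts, filters, a replicate block, each library set alone and each library left out in turn.

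Every member is named, as are partner genes called at 1.5-fold or more. Partner genes below 1.5-fold were named after their values were seen. Members, lists and tests were chosen with earlier results of these data known. The fits of library set and its interaction with genotype were added after the data were seen. Columns of the authors' own comparison (fold changes and p-values) were not used, and no column belonged to other samples (0). The labels do not say whether libraries of one number share a litter or day. After genotype means were removed, the correlation (r) between WT and KI libraries 1 to 5 of equal number was 0.306, 0.105, 0.28, 0.216 and 0.462, all over 0.1. Libraries of unequal number were not correlated, so these values cannot show that equal numbers are pairs. The replicate block treated equal numbers as pairs, and the main fit used no pairing. Exon lengths and overlaps came from GENCODE vM21, which may differ from the gene models of the counting.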

Additional observations from a re-analysis of the deposited data

Results flagged for a closer look

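Among 42 genes in 2 genotypes (84 groups of 5 libraries), 6 groups had a library whose gap to its nearest neighbour passed Dixon's critical value of 0.71 of the range. Chance gives about 1 in 20 such groups. Library 5 stood high for Hdac4 in both genotypes, at 323 normalised counts in WT against 274 to 287 in the other WT libraries, and at 415 in KI against 349 to 367. It stood low for Hdac3 in KI, at 778 against 902 to 942. Library 4 stood high for Sirt4 in WT, at 561 against 367 to 420, and for Msl3l2 in KI, at 1770 against 1480 to 1540. Hdac10 had 32.2 in KI library 2 against 7.08 to 12.4 in the other KI libraries, from at most 37 reads.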

How the results depend on the processing

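The count of 2 called members was 17 when scaled to library totals, 7 with libraries 1 to 3, 1 with libraries 4 and 5, and 2 to 3 when each library was left out. Differentially expressed members numbered 2 with library totals, 1 with upper quartile scaling and 1 with libraries 1 to 3 (Hdac9), and 0 whichever library was left out. The 17 called partner genes became 49 with library totals, 26 with libraries 1 to 3, 6 with libraries 4 and 5, and 12 to 15 when each library was left out. The replicate block, which treats libraries of equal number as pairs, gave 27 partner genes. It left the called members at 2 (Ing1 and Hdac4) and changed no other call of a member.

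Signs turned for small values. With library totals these were Hdac1 (0.101), Ing3 (0.161), Kat14 (0.209), Kat6b (0.185), Kat8 (0.105), Msl1 (0.0245), Msl2 (0.0855), Msl3l2 (0.161), Sirt1 (0.138) and Sirt4 (0.125). With upper quartile scaling they were Ing3 (0.0256), Kat14 (0.0736), Kat6b (0.0498), Msl3l2 (0.0252) and Sirt1 (0.003). Ing2 turned with TMM (−0.000982) and edgeR (−0.00292), and Sirt6 with edgeR (−0.0137) and DESeq2 (−0.00939). With libraries 1 to 3, Epc1 (−0.0206), Hdac2 (−0.00225), Kat2a (−0.000254), Sirt2 (−0.0424) and Sirt5 (−0.0417) turned. With libraries 4 and 5, Hdac11 (−0.363), Hdac5 (−0.0312), Ing2 (−0.00279), Ing3 (0.0304), Kat14 (0.153), Kat6b (0.0783), Msl2 (0.0696), Msl3l2 (0.0366), Sirt1 (0.108), Sirt3 (−0.0298), Sirt6 (−0.205) and Sirt7 (−0.074) turned. With each library left out, values spanned −0.0467 to 0.0954 for Epc2, −0.0332 to 0.117 for Hdac2, −0.029 to 0.0349 for Ing2, −0.0924 to 0.0353 for Kat14, −0.0143 to 0.0737 for Kat2a, −0.0786 to 0.00834 for Kat6b, −0.168 to 0.00688 for Sirt4, −0.00807 to 0.149 for Sirt5 and −0.118 to 0.116 for Sirt6. The cause of these turns was not tested. None of the turned values passed the adjusted p threshold. The sets of 3 and 2 libraries per genotype hold fewer samples than the main fit. Signs also turned with all 10 libraries, and for genes with many reads, such as Msl1 with 4690 to 8010. Sirt5 and Sirt6, with under 100 reads in every library, had wide intervals. The pseudocounts of 0.1 and 10 and the filters turned no sign and changed no call among the members tested.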
